A study of Mus musculus with 7 samples.

Results

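The DNA methylation and demethylation enzymes comprise 10 genes, Tet1, Tet2, Tet3, Tdg, Mbd4, Smug1, Dnmt1, Dnmt3a, Dnmt3b and Uhrf1, chosen by name and found by Ensembl identifier among 51426 genes. Liver mRNA was sequenced from 3 wild-type (WT) mice and 4 TET1 knockout (KO) mice, each library from 1 mouse. All were male mice labelled C57BL/6J and had been fed a high-fat diet (HFD) for 16 weeks, begun at 8 weeks of age, so that no liver on a normal diet enters the comparison. The KO mice lacked TET1 in the whole body. They came from a line bought as heterozygotes with the allele Tet1tm1.1Jae on a mixed B6;129S4 background, and the WT mice were their littermates. The authors counted reads per gene and deposited the counts without normalization. The comparison asked which of the enzymes differed between WT and TET1 KO livers, whether the other TET genes stood higher where TET1 was missing, and how Tdg behaved.

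Methyl groups are placed on cytosine by DNA methyltransferases. DNMT3A and DNMT3B methylate new sites, while DNMT1, guided by UHRF1 to hemimethylated DNA, copies the pattern after replication. TET dioxygenases oxidize the methylated base in steps, and thymine DNA glycosylase (TDG) cuts out the last oxidized forms so that base excision repair can restore a plain cytosine. MBD4 and SMUG1 are glycosylases that remove thymine or uracil and related damaged bases, and SMUG1 also acts on an oxidized thymine-derived base. In adult liver most hepatocytes rest outside the cell cycle, and maintenance factors such as UHRF1 are known for their rise when hepatocytes divide.

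Of the 10 enzymes, 9 had enough counts to be tested, and Tdg alone passed the test, being lower in TET1 KO livers (edgeR's quasi-likelihood test, Benjamini-Hochberg adjusted p under 0.05 over 14754 tested genes). Over all tested genes 2.02% passed in either direction and 1.15% passed as lower. The TET1 KO and WT values did not overlap for 2 of the 9, Tdg and Dnmt3a, while 22.5% of all tested genes showed such a separation. The median log2 fold change of the 9 was -0.05, beside 0.01 over all tested genes, with 6 values below 0 and 3 above. Levels are given as CPM, the count scaled to library size after TMM normalization, and SE is the standard error.

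**Figure D1:**
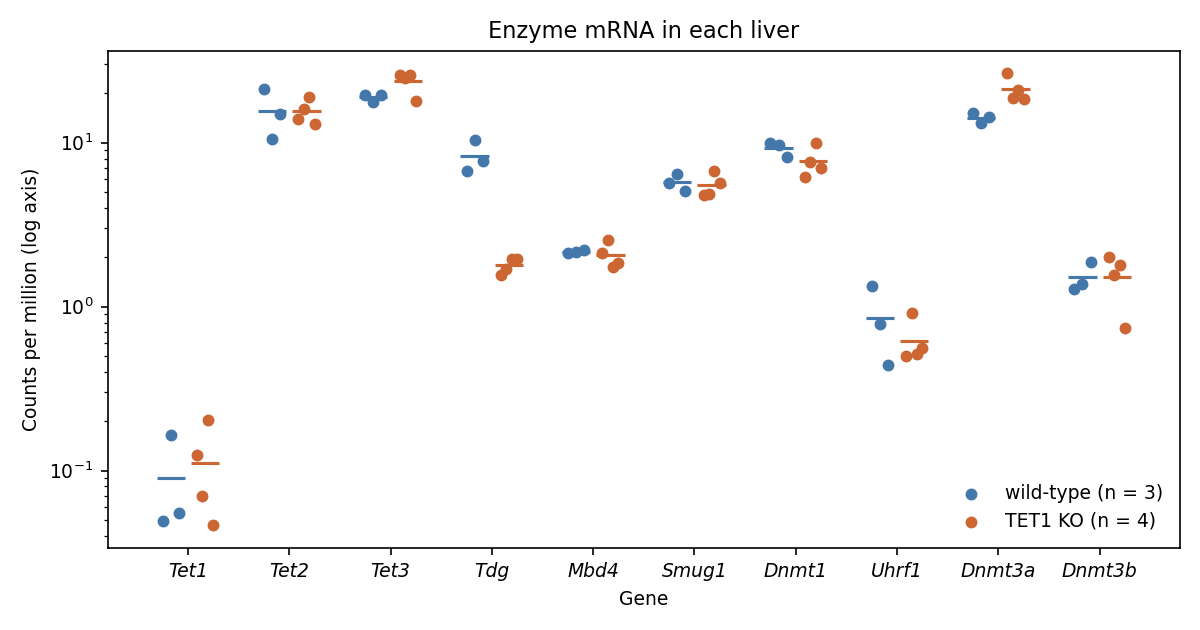
Each point is 1 liver, bars are group means, and the vertical axis is CPM on a log scale for the 10 enzymes in WT (n = 3) and TET1 KO (n = 4) livers. The 4 TET1 KO points for Tdg, between 1.57 and 1.95 CPM, lie below the WT points, between 6.69 and 10.4 CPM.

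Library totals ran from 15005277 to 22746138 counts. The hepatocyte markers Alb, Apoa1, Ttr, Cyp2e1 and Hnf4a were present in every library, with a summed level of 61808 to 82964 CPM in WT and 74654 to 83655 CPM in TET1 KO livers. None of the 9 lists of cell type markers held a called gene in this edgeR fit. Summed levels overlapped between the genotypes for Kupffer, T and NK, B, neutrophil, endothelial and stellate cell markers, of which the defining genes Gzma, Ly6g and Retnlg were at 0 counts in at least 1 library. They did not overlap for the 4 cholangiocyte markers, at 6.47 to 9.93 CPM in WT and 15.4 to 24.3 CPM in TET1 KO livers, all 4 detected in every library. Nor did they for the 12 markers of dividing cells, at 46.2 to 60.2 CPM in WT and 29.4 to 41.3 CPM in TET1 KO livers, all 12 detected in every library. Taken singly, 22.5% of all tested genes showed such a separation. The labels used give no batch or date.

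Tet1, the targeted gene (ENSMUSG00000047146, GRCm38.p6 chr10:62804570-62887469), encodes the dioxygenase removed in the KO mice. It had 1, 4 and 1 counts in WT replicates 1 to 3 and 2, 1, 4 and 1 counts in TET1 KO replicates 1 to 4. Both genotypes thus lay near the floor of 3 counts per library, and 1 library of each stood above it. The WT sum was 6 of 60201548 counts (exact 95% Poisson interval 2.20 to 13.1, counting error only), and the TET1 KO sum was 8 of 73196696 counts (3.45 to 15.8). The mean was 2.0 counts in each genotype (exact two-sided permutation test, p = 1.0, where 35 assignments of the 7 mice allow no p under 0.0286), and no fold change is given. These counts cannot check the genotype labels, since the WT livers were at the floor too and the deleted part of the gene is not given in the sources used here.

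Tet2 and Tet3 encode the other dioxygenases of the family. Tet2 (ENSMUSG00000040943, GRCm38.p6 chr3:133463677-133545136) stood at 21.4, 10.6 and 15.0 CPM in the WT livers and at 13.9, 16.1, 19.0 and 13.1 CPM in the TET1 KO livers. WT replicate 1 had the highest and WT replicate 2 the lowest value of all 7, so the TET1 KO livers lay within the WT range. Its log2 fold change was -0.01 (SE 0.23, edgeR adjusted p = 0.984), and the 95% interval allows a fold from 0.701 to 1.41. The sign turned with the library left out: without WT replicate 1 the log2 fold change was 0.27.

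Tet3 (ENSMUSG00000034832, GRCm38.p6 chr6:83362373-83457208) stood at 19.6, 17.8 and 19.6 CPM in the WT livers. In the TET1 KO livers it stood at 26.0, 24.7, 26.0 and 18.0 CPM. TET1 KO replicates 1 to 3 lay above every WT liver, and TET1 KO replicate 4 lay inside the WT range. On the log2 scale the fold change was 0.32 (SE 0.16, 95% interval -0.03 to 0.66) and did not pass the test (edgeR adjusted p = 0.223). The interval allows anything from a fold of 0.980 to one of 1.58. Leaving out each mouse in turn gave log2 fold changes from 0.25 to 0.43, and over all 14 alternatives the values ran from 0.22 to 0.43 with adjusted p from 0.0823 to 0.513, none of them called.

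The lines below show what limits the reading of Tdg counts. Processed copies of its mRNA lie elsewhere in the mouse genome, and a copy annotated as coding in GENCODE M1, Gm5806 (ENSMUSG00000047347, called Tdg-ps in the deposited tables), has a coding sequence of the same length as the Tdg transcript with 1194 coding bases, the shorter of the isoforms used here. They differ at 14 of 1194 coding bases (98.8% identity), and the longest identical run is 364 bases. The 60 bases printed, coding positions 917 to 976 counted from the start codon, hold the most differences of any such window, at C930T, T945A and G976A (Tdg base, position, copy base), which are in capitals.
Tdg: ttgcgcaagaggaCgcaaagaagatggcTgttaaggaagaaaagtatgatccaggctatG
Tdg-ps: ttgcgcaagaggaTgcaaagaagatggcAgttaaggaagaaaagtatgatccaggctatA
Even this most divergent window differs at only 3 bases.

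Copies of more than 0.5 of the Tdg mRNA were found at 4 other places of NCBIM37 by blastn, at 98.6% to 99.5% identity. They lie on chromosome 15 (Gm5806), on chromosome 10 (Gm9855), on chromosome 7 with no annotated gene, and on chromosome 19 overlapping Lipo1. Of the 100-base windows of the Tdg mRNA, 66.0% also occurred elsewhere in that genome, and 79.0% of the 50-base windows did. Uhrf1 followed with 10.2% of its 100-base and 29.7% of its 50-base windows. Dnmt3b had 1.28% and 8.03%, and the other 7 enzymes had at most 1.17% and 3.14%. How the authors' counting treated reads that map to several places is not given in the sources used here, so the counts of Tdg and Uhrf1 are uncertain in level.

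**Figure D2:**
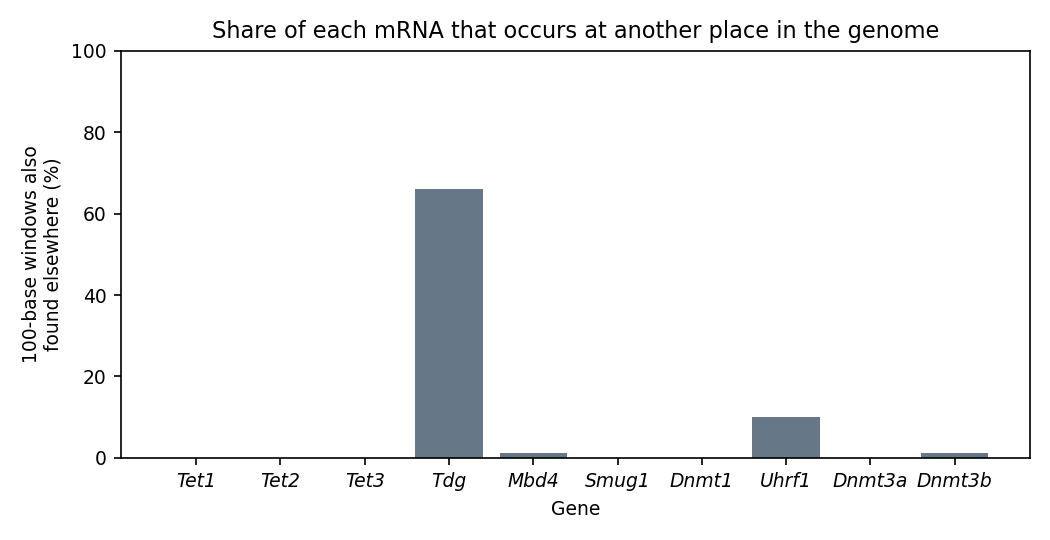
Bars give, for 1 mRNA of each of the 10 enzymes, the percentage of its 100-base windows that also occur at another place of the NCBIM37 genome. Tdg reaches 66.0%, Uhrf1 10.2%, and every other bar is at or under 1.28%.

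Tdg (ENSMUSG00000034674, GRCm38.p6 chr10:82629814-82650799) was the only enzyme called in this edgeR fit. It had 136, 251 and 140 counts in WT replicates 1 to 3, which are 6.69, 10.4 and 7.73 CPM. In TET1 KO replicates 1 to 4 it had 25, 24, 38 and 42 counts, which are 1.57, 1.69, 1.94 and 1.95 CPM. No TET1 KO liver reached the level of any WT liver, and the 4 TET1 KO values were close together (1.79 ± 0.191 CPM, SD, n = 4) beside a wider WT spread (8.27 ± 1.92 CPM, SD, n = 3). Tdg was 4.60-fold lower in TET1 KO livers (95% interval 3.31 to 6.39), a log2 fold change of -2.20 (SE 0.21, edgeR adjusted p = 0.00191), and ranked 5 by p among all tested genes. The exact two-sided permutation test gave p = 0.0286, the smallest that 35 assignments allow. In bulk liver, fewer cells that express a gene and less of its mRNA per cell cannot be told apart. The part of the cholangiocyte and dividing-cell markers, whose summed levels did not overlap between the genotypes, was not tested for Tdg. None of these markers was called by edgeR. The result kept its direction and its call without each of the 7 mice, with log2 fold changes from -2.35 to -2.01.

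Entries for 2 of the copies were counted apart from Tdg. Tdg-ps had 8, 29 and 13 counts in WT and 11, 8, 16 and 18 counts in TET1 KO livers, and Gm9855 had 14, 21 and 6 counts in WT and 7, 12, 7 and 25 counts in TET1 KO livers. For both copies the genotypes overlapped. The log2 fold changes were -0.09 for Tdg-ps (95% interval -1.02 to 0.83, edgeR adjusted p = 0.905) and 0.13 for Gm9855 (-0.97 to 1.24, adjusted p = 0.885). Tdg itself held 83.4% to 88.1% of the reads summed over the 3 entries in WT livers and 49.4% to 62.3% in TET1 KO livers. With the 3 entries summed, the counts were 158, 301 and 159 in WT and 43, 44, 61 and 85 in TET1 KO livers, again without overlap. The log2 fold change of this sum was -1.58 (SE 0.22, 95% interval -2.06 to -1.11, edgeR adjusted p = 0.00786), an alternative chosen after the copies had been seen. Lipo1 had 0 counts in every library. Its overlap with the copy on chromosome 19 was found over the whole gene span, so this does not measure reads from that copy.

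**Figure D3:**
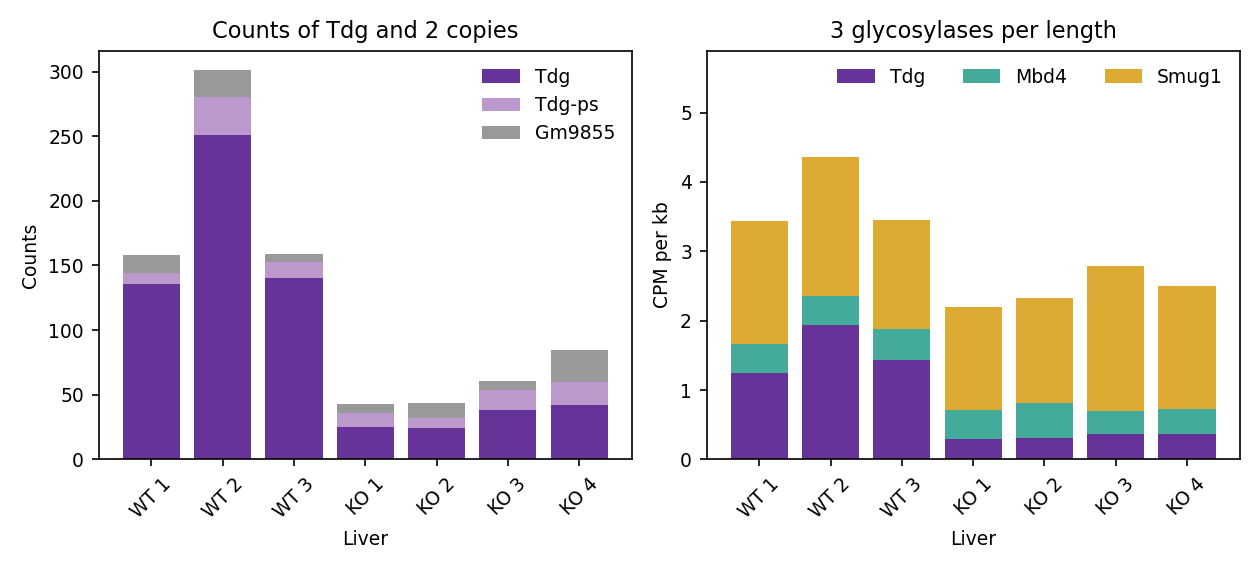
The left panel stacks the counts of Tdg and its copies Tdg-ps and Gm9855 in each of the 7 livers, and the right panel stacks CPM per kb of exon for the glycosylase genes Tdg, Mbd4 and Smug1. In the TET1 KO livers the Tdg segment shrinks to between 24 and 42 counts, while the segments of the copies and of Mbd4 and Smug1 overlap in height with those of the WT livers.

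Mbd4 and Smug1, the other glycosylases, had no difference that passed the test. Mbd4 (ENSMUSG00000030322, GRCm38.p6 chr6:115840697-115853400) stood at 2.12, 2.16 and 2.21 CPM in WT and at 2.13, 2.54, 1.74 and 1.86 CPM in TET1 KO livers. The narrow WT range lay inside that of the TET1 KO livers, and the log2 fold change was -0.08 (95% interval -0.59 to 0.44, edgeR adjusted p = 0.857). Smug1 (ENSMUSG00000036061, GRCm38.p6 chr15:103153290-103168939) stood at 5.71, 6.47 and 5.08 CPM in WT and at 4.82, 4.86, 6.75 and 5.71 CPM in TET1 KO livers. TET1 KO replicates 1 and 2 were the lowest of the 7 livers and replicate 3 the highest. The log2 fold change of Smug1 was -0.05 (95% interval -0.47 to 0.37, edgeR adjusted p = 0.878). Per kb of exon, Tdg made up 36.3% to 44.4% of the summed CPM of the 3 glycosylases in WT livers and 12.9% to 14.5% in TET1 KO livers. The ratio of Tdg to Smug1 on that scale was 0.705 to 0.967 in WT and 0.173 to 0.209 in TET1 KO livers. This share and this ratio carry the uncertainty in level that the copies give to the Tdg counts.

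Dnmt3a (ENSMUSG00000020661, GRCm38.p6 chr12:3801559-3914443), a methyltransferase that acts on new sites, was the other enzyme whose genotypes did not overlap. It stood at 15.1, 13.1 and 14.4 CPM in WT and at 26.5, 18.7, 20.8 and 18.5 CPM in TET1 KO livers. Each TET1 KO liver exceeded each WT liver, with TET1 KO replicate 1 the highest. The fold of TET1 KO over WT was 1.49 (95% interval 1.16 to 1.90). The log2 fold change of 0.57 (SE 0.16) did not pass the test (edgeR adjusted p = 0.0778, rank 855 by p). The adjusted p was 0.0413 in DESeq2 and 0.0470 in edgeR with the replicate number as a block, both of which called it. Over all genes those fits called 8.74% and 8.99%. Leaving out each mouse gave log2 fold changes of 0.45 to 0.63, none of them called. The exact two-sided permutation p was 0.0286, the smallest possible.

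Dnmt3b (ENSMUSG00000027478, GRCm38.p6 chr2:153649411-153687730), its paralog, was far less abundant. It stood at 1.28, 1.37 and 1.88 CPM in WT and at 2.00, 1.55, 1.79 and 0.742 CPM in TET1 KO livers. TET1 KO replicate 4 was the lowest liver and TET1 KO replicate 1 the highest. With a log2 fold change of 0.00, the 95% interval ran from -0.78 to 0.78 (edgeR adjusted p = 0.998), so a change of up to 1.72-fold in either direction is allowed at this depth of 16 to 35 counts per library. The ratio of Dnmt3a to Dnmt3b per kb of exon was 2.36 to 3.62 in WT and 3.57 to 7.65 in TET1 KO livers.

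Dnmt1 (ENSMUSG00000004099, GRCm38.p6 chr9:20907206-20959888), the maintenance methyltransferase, stood at 9.89, 9.62 and 8.17 CPM in WT and at 6.14, 7.68, 9.92 and 7.005 CPM in TET1 KO livers. TET1 KO replicates 1, 2 and 4 were below every WT liver, but TET1 KO replicate 3 was the highest of all. Dnmt1 had a log2 fold change of -0.26 (95% interval -0.68 to 0.15, edgeR adjusted p = 0.387). Per kb of exon, the ratio of Dnmt3a to Dnmt1 was 0.432 to 0.558 in WT and 0.664 to 1.37 in TET1 KO livers, without overlap and with no test of its own.

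Uhrf1 (ENSMUSG00000001228, GRCm38.p6 chr17:56303337-56323486), the factor that brings DNMT1 to replicated DNA, was counted 27, 19 and 8 times in WT and 8, 13, 10 and 12 times in TET1 KO livers. The WT livers alone spanned the values of every TET1 KO liver on the CPM scale, from 0.442 to 1.33 CPM. Uhrf1 had a log2 fold change of -0.49 (95% interval -1.47 to 0.48, edgeR adjusted p = 0.491), and a difference was not detectable at this depth. The value was -0.06 without WT replicate 1 and -0.80 without WT replicate 3. Its copy Gm5648 had 0 counts in 6 libraries and 2 in TET1 KO replicate 4. Dnmt1 and Uhrf1 belong to the genes that dividing cells use, and the summed dividing-cell markers given above were lower in the TET1 KO livers with a median log2 fold change of -0.67 over 11 tested markers, 0 of them called. Their part in the values of Dnmt1 and Uhrf1 was not tested.

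**Figure D4:**
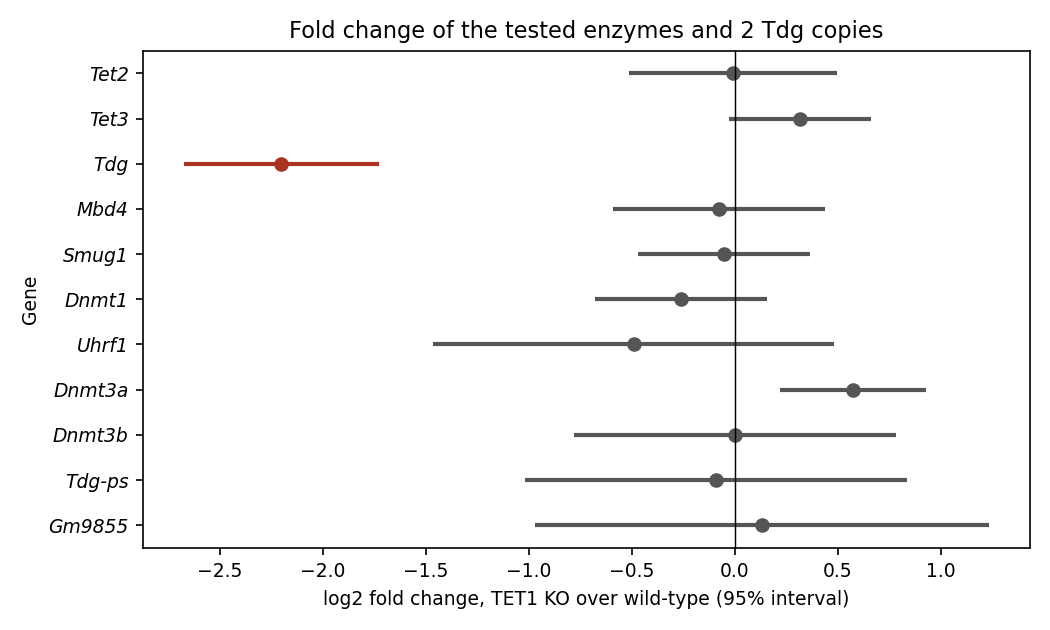
Points are log2 fold changes of TET1 KO over WT livers and lines their 95% intervals from edgeR for the 9 tested enzymes and the Tdg copies Tdg-ps and Gm9855, with the called gene in red. Tdg lies at -2.20, Dnmt3a at 0.57 with an interval from 0.22 to 0.93, and the intervals of the other genes include 0.

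Per kb of exon (lengths from GENCODE M1), the enzymes could be set in order within each genotype. In WT livers Smug1 (1.78 ± 0.215 CPM per kb, SD, n = 3), Dnmt1 (1.75 ± 0.176), Tet3 (1.71 ± 0.0954), Tet2 (1.70 ± 0.589) and Tdg (1.54 ± 0.356) followed each other, and each of these neighbours overlapped in range. Below them came Dnmt3a (0.854 ± 0.0599), Mbd4 (0.427 ± 0.00904), Dnmt3b (0.295 ± 0.0631), Uhrf1 (0.200 ± 0.105) and Tet1 (0.00612 ± 0.00446). Of those lower neighbours only Dnmt3b and Uhrf1 overlapped in range. In TET1 KO livers Tet3 came highest (2.13 ± 0.345 CPM per kb, SD, n = 4), then Smug1 (1.71 ± 0.281), Tet2 (1.69 ± 0.289), Dnmt1 (1.46 ± 0.308) and Dnmt3a (1.27 ± 0.223), neighbours again overlapping. Tdg stood there at 0.333 ± 0.0355 CPM per kb, its range overlapping with those of Mbd4 (0.408 ± 0.0700) and Dnmt3b (0.298 ± 0.108) on either side. Tdg thus moved from rank 5 in WT to rank 7 in TET1 KO livers. The places of Tdg and Uhrf1 in both orders are uncertain, since their shared sequence leaves the level of their counts uncertain.

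The RefSeq promoter window, 250 bases before to 50 after a transcript start, is printed for Tdg, the called enzyme, and for Tet1, the targeted one, only as far as it lies outside the gene's own span. The transcript start used there lies inside that span for both genes. CG dinucleotides, the sites these enzymes act on, are in capitals, and the strands run 5′ to 3′ in the direction of transcription. The Tdg stretch, on the plus strand, has 226 bases (GRCm38.p6 chr10:82629588-82629813), and the Tet1 stretch, on the minus strand, has 105 bases (GRCm38.p6 chr10:62887470-62887574).
Tdg: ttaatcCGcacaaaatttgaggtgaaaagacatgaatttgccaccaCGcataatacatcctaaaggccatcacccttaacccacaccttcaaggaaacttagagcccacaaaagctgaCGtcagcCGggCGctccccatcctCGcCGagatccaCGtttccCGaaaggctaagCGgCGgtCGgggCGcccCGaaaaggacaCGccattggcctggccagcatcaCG
Tet1: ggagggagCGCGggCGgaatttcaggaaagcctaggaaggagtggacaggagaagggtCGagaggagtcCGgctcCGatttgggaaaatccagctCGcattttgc
The motif searched was CG, which reads the same on both strands, and these stretches hold 16 for Tdg and 7 for Tet1. In the whole 300-base window Tdg had 26 and Tet1 had 17, beside a median of 7 over 32851 promoters of the same 300-base length, of which 94.6% hold at least 1. As many as 26 were found in 16.9% of those promoters and as many as 17 in 31.4%. Of the other enzymes with a single entry, Tet2 had 57, Dnmt3b 30, Mbd4 25, Tet3 22 and Smug1 15, while Dnmt1 (2 to 33), Dnmt3a (18 to 47) and Uhrf1 (12 to 33) had several entries. DNA methylation was not analysed here, so these counts describe sequence only.

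Tet1 and Tdg lie on the same chromosome, 19.7 Mb apart in GRCm38.p6. Of the 197 tested genes between them 1 was called, Arid5b (log2 fold change -0.99, standard error 0.21, edgeR adjusted p = 0.0436), or 0.508%. Over all of chromosome 10 without Tet1 and Tdg, 704 genes were tested, and 4 were called higher and 6 lower, or 1.42%. Beside Tdg, neither 1190007I07Rik, 6.59 kb away (0.40, adjusted p = 0.250), nor Hcfc2, 48.2 kb away (0.05, adjusted p = 0.876), passed the edgeR test. Beside Tet1, Ccar1 was higher in every TET1 KO liver than in any WT liver (0.54, adjusted p = 0.0844) and Slc25a16 lower (-0.38, adjusted p = 0.144), neither called by edgeR. Since the KO line was bought on a mixed strain background, any strain difference in sequence linked to Tet1 and the loss of Tet1 cannot be told apart here.

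The genes whose log2 CPM most resembled that of Tdg over the 7 livers, as a description that includes the genotype difference itself, were Gm30692 (Pearson r = 0.990), Parva (0.985), Sowahc (0.984), Tead1 (0.983) and Asap1 (0.983). Among them Gm30692, a predicted gene, fell by 3.14 on the log2 scale in TET1 KO livers (edgeR adjusted p = 0.00966). Tead1, a DNA-binding partner of YAP, fell by 1.28 (adjusted p = 0.00388). Parva, Sowahc and Asap1 had log2 fold changes between -0.47 and -0.33 and were not called.

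Around the 10 enzymes, 64 genes in 5 lists were examined, and 58 had enough counts to be tested. None passed the edgeR test after adjustment. An unadjusted edgeR p under 0.05 was found for 10 of the 58 (17.2%), beside 26.3% over all tested genes. DESeq2 called 5 of 57 with an adjusted p (8.77%), beside 8.74% over all genes. Their median log2 fold change was 0.06, beside 0.01 over all tested genes. Among the 23 other glycosylase and base excision repair genes, 21 were tested, with a median of 0.02. Gadd45g, a stress-induced gene linked to demethylation, had 4.18, 4.19 and 5.52 CPM in WT livers. It had 107 CPM in TET1 KO replicate 1 and 2.40, 2.97 and 3.15 CPM in TET1 KO replicates 2, 3 and 4. Replicate 1 alone was above the WT livers and the other three were below them, so that its log2 fold change of 2.64 (SE 1.24, adjusted p = 0.203) rests on 1 mouse.

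All 10 genes of the list of methylated-DNA readers and their relatives were tested, with a median log2 fold change of 0.15. The list was drawn up by protein family and includes Mbd3, Mbd5 and Mbd6, whose proteins carry the family domain but are not known to bind methylated DNA selectively. Mbd6 had 26.5 to 41.5 CPM in WT and 41.9 to 65.0 CPM in TET1 KO livers (0.65, standard error 0.20, edgeR adjusted p = 0.0893). Zbtb4, a zinc finger protein that binds methylated DNA, had 13.8 to 20.5 CPM in WT and 22.04 to 33.4 CPM in TET1 KO livers (0.50, adjusted p = 0.138). Neither overlapped between the genotypes, and this edgeR fit called neither. Mbd6 was called in DESeq2 (adjusted p 0.0433), in edgeR with the replicate number as a block (0.0212) and in edgeR without TET1 KO replicate 4 (0.0499), a fit that called 6.18% of all tested genes. Of 10 partners and regulators 6 were tested, and their log2 fold changes all lay between 0.13 and 0.40. They include Cxxc5, a CXXC-domain protein related to the DNA-binding part of TET enzymes (0.36, adjusted p = 0.148), and Ogt, the O-GlcNAc transferase that binds TET proteins (0.40, adjusted p = 0.173). Dnmt3l, Cxxc4 and Dppa3 were among those too low to test.

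All 15 genes of the methyl donor cycle were tested, with a median log2 fold change of -0.05. Ahcy, which hydrolyses the S-adenosylhomocysteine left by every methyl transfer, had 573, 477 and 562 CPM in WT and 925, 758, 841 and 931 CPM in TET1 KO livers. Each TET1 KO liver lay above each WT liver, yet the log2 fold change of 0.68 (SE 0.16) did not pass the test (edgeR adjusted p = 0.0550). Gamt, which uses the methyl donor to make creatine, had 151 to 239 CPM in WT and 236 to 302 CPM in TET1 KO livers (0.54, edgeR adjusted p = 0.0973). DESeq2 called both, with an adjusted p of 0.000228 for Ahcy and 0.0494 for Gamt. The 6 genes that supply 2-oxoglutarate, the cosubstrate of TET enzymes, or clear 2-hydroxyglutarate had the lowest median, -0.35. Glud1, glutamate dehydrogenase, had 777 to 1012 CPM in WT and 545 to 696 CPM in TET1 KO livers (-0.46, adjusted p = 0.122), and Idh2, the mitochondrial isocitrate dehydrogenase, had 79.1 to 115 CPM in WT and 44.3 to 80.2 CPM in TET1 KO livers (-0.62, adjusted p = 0.0998). The values of Idh2 overlapped. edgeR called neither, whereas DESeq2 called both (adjusted p 0.0322 for Glud1 and 0.0482 for Idh2).

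**Figure D5:**
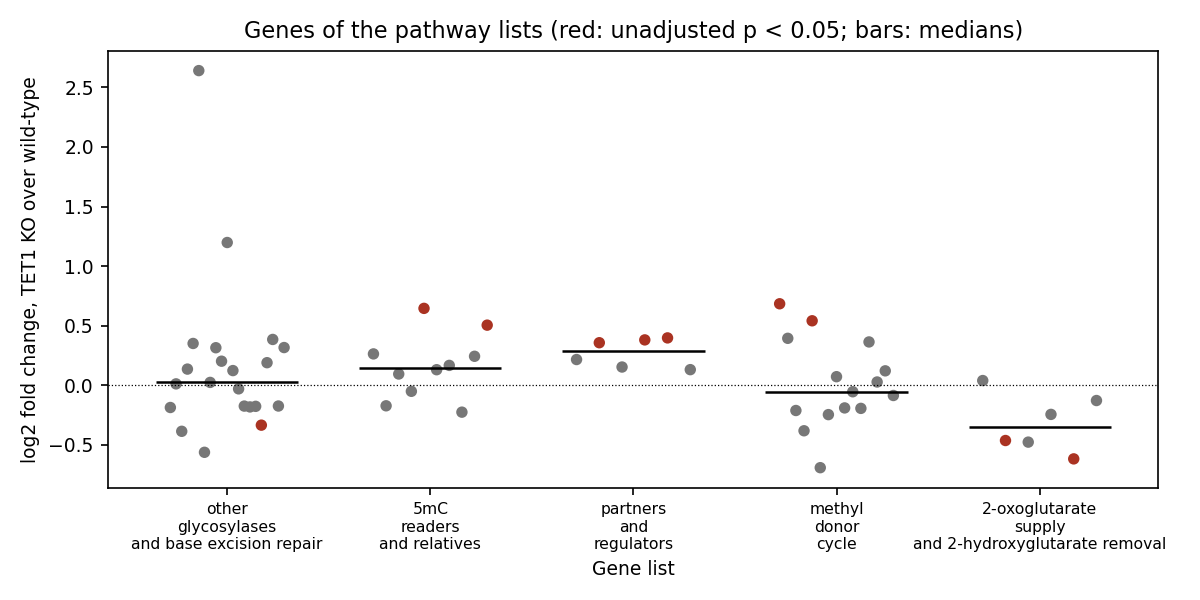
Each point is the log2 fold change of TET1 KO over WT livers for 1 of the 58 tested genes in the 5 pathway lists, bars are list medians and red marks an unadjusted edgeR p under 0.05 (10 genes, or 17.2%, beside 26.3% of all tested genes). None passed edgeR after adjustment, and DESeq2 called 5. Medians run from -0.35 to 0.29, and the point at 2.64 is Gadd45g.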

How the data were processed

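The samples were livers of 3 WT and 4 TET1 KO mice. The authors deposited 1 table of raw read counts per mouse, not normalized. Per the submitters' processing notes, Trimmomatic 0.36, GSNAP and featureCounts 1.5.3 were used with GRCm38. Libraries were stranded, but the strand setting of the counting, the annotation release and the treatment of reads mapping to several places are not given in the sources used here. Where the counting split or dropped such reads, genes with copies would be undercounted. Tables were joined by Ensembl identifier, since 26 symbols had been turned into dates in 1 table, and 5 repeated entries were left out. Coordinates are those of GRCm38.p6 in RefSeq.

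The test was edgeR 4.0.16 in R 4.3.3 (filterByExpr, TMM, quasi-likelihood test with legacy = FALSE, no covariates). Calls were made where the adjusted p (Benjamini-Hochberg, over 14754 genes) was under 0.05. Standard errors were derived from each F statistic, and 95% intervals from a t distribution. The common biological coefficient of variation was 0.208. DESeq2 1.42.0 was the alternative test. log2 CPM used a prior count of 2. The fit was also run on simulated counts in which all genes shared a common dispersion, so that run does not vouch for the genes tested here. Copies were searched with blastn 2.17.0 (word size 48) in NCBIM37 with GENCODE M1 transcripts, taking windows of 50 and 100 bases. Promoters are from RefSeq (GRCm38.p6), and all 10 enzymes had an entry. Figures used matplotlib 3.10.9.

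The 10 enzymes, the 5 pathway lists and the 9 marker lists were chosen with earlier results of these data known. Genes named beyond the 10 are the called or else the 2 smallest-p genes of each list, the 5 genes with the highest r with Tdg, the tested neighbours of Tdg and Tet1, and the Tdg copies. Some genes of the lists are not reported here by name. Arid5b was named because it was the only called gene in its interval, and Lipo1 and Gm5648 as genes that overlap copies, after their values were seen. Replicate libraries all differed by more than sampling noise (lowest chi-square per degree of freedom 27.4). Alternatives were DESeq2, a replicate block, leaving out each mouse, robust dispersions, scaling by RLE or by library size, and filtering either not at all or at 10 counts in each library.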

Additional observations from a re-analysis of the deposited data

Results flagged for a closer look

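In the TET1 KO group of 4, the liver farthest from the others was compared with Dixon's 95% critical value for 4 samples, over 32 quantities, of which chance alone would pass about 1.6, and 3 passed. Tet3 passed through TET1 KO replicate 4, at 18.0 CPM beside 24.7 to 26.0 CPM in the other TET1 KO livers (a gap of 0.833 of the group's range). Uhrf1 passed through TET1 KO replicate 2, at 0.916 CPM beside 0.501 to 0.557 CPM in the others (0.866). Gadd45g passed through TET1 KO replicate 1, at 107 CPM beside 2.40 to 3.15 CPM in the others (0.993).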

How the results depend on the processing

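Tdg was lower and called under all 15 alternatives, with log2 fold changes from -2.35 to -1.58 and adjusted p from 1.32e-12 to 0.0174. It was -2.01 to -2.35 without each mouse. Tdg was the only enzyme called except in DESeq2 and with the replicate block, where Dnmt3a made it 2 (adjusted p 0.0413 and 0.0470, log2 fold changes 0.55 and 0.62). Over its alternatives the adjusted p of Dnmt3a ran from 0.0413 to 0.302. Of the listed pathway genes, DESeq2 called 5 (Mbd6, Ahcy, Gamt, Idh2 and Glud1) and the replicate block 3 (Mbd6, Gnmt and Got1), and leaving out each mouse gave 0 to 1 (Mbd6, without TET1 KO replicate 4). The count over all genes was 298, and became 1315 in DESeq2, 592 without a filter on low counts, 1326 with the replicate block and 38 to 891 without each mouse, 38 being without WT replicate 2 and 891 without TET1 KO replicate 4. It was 187, 104 and 79 without TET1 KO replicates 1, 2 and 3. The cause of these shifts was not tested. The replicate numbers did not pair the mice (same-number correlations 0.21, -0.12 and -0.10), and TET1 KO replicate 4 had no WT partner, so the block drops it from the contrast.

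Signs turned for 3 enzymes that were never called. Tet2 was 0.11 with the replicate block and -0.24 to 0.27 without each mouse (0.27, 0.04 and 0.07 without WT replicate 1 and TET1 KO replicates 1 and 4). Smug1 was -0.18 to 0.0334 without each mouse. Dnmt3b was -0.0168 in DESeq2, -0.0112 with RLE size factors, -0.0945 when scaled by library size, -0.0272 without filtering, -0.00156 with at least 10 counts in each library and -0.16 to 0.25 without each mouse. Tet3, Mbd4, Dnmt1 and Uhrf1 kept their sign and stayed uncalled, Uhrf1 with values from -0.80 to -0.06, and the difference in Tet1 counts lay between -0.667 and 1.00 without each mouse. At 8 to 52 counts per library, Uhrf1, Dnmt3b and Mbd4 have wide intervals, and Tdg is limited by shared sequence as well.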
